A study of Bos taurus with 16 samples.

Results

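The genes H19, IGF2, PEG3 and IGFBP3 belong to genomic imprinting or to the insulin-like growth factor (IGF) axis, and were followed in kidney RNA of cattle (Bos taurus) through 3 rounds of linear amplification. Their members are all features of a custom cDNA array whose listed symbol is one of these names, where a feature is a cDNA clone printed as a pair of spots. This gave 15 of the 8448 features on the array: 2 clones of H19, 3 of IGF2, 7 of PEG3 and 3 of IGFBP3, and all 15 were among the 5537 features that could be tested. Clones are named below by their feature number on the array. Clones of one gene were hybridised to the same RNAs and are not replicates of each other, and where each clone lies on its transcript was not looked up here.

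In imprinted genes only the copy inherited from one parent is expressed. IGF2 is a fetal growth factor expressed from the paternal copy, and H19, its neighbour, is an abundant long noncoding RNA of fetal tissue expressed from the maternal copy. PEG3 encodes a zinc finger protein expressed from the paternal copy, while IGFBP3, the main carrier of IGFs in blood, is usually described as expressed from both copies. IGF binding proteins hold IGFs away from their receptors, and IGF2R, itself imprinted in several mammals, takes up IGF2 for degradation. In the RefSeq gene table of the assembly ARS-UCD2.0, H19 is listed as a long noncoding RNA with 3 genes between it and IGF2, and IGFBP3 lies directly beside IGFBP1.

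The study had 8 kidney RNAs, with a replicate 1 and a replicate K for every one of 4 rounds. Round 0 was unamplified total RNA isolated with Trizol, and rounds 1, 2 and 3 were RNA put through that number of linear amplifications, which copy RNA by in vitro transcription. Each RNA was hybridised on a pair of arrays with the dyes Cy3 and Cy5 exchanged, against a common reference RNA that the labels say was amplified for 2 rounds, which gave 16 arrays. The labels give neither the breed, age or sex of the cattle, nor the tissue of the reference, nor whether replicates 1 and K are different animals, so p-values here measure only the spread between these RNAs, which may be technical. The question, as the labels state it, is how unamplified and amplified RNA compare on this array. Since the reference is amplified, round 0 sets unamplified kidney against amplified reference.

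Values below are log2 ratios, kidney over reference, averaged over both spots and both dye orientations and centred on the array's median, so a ratio of 1 is a difference of 2-fold. The direction of the deposited ratios is likely rather than stated: read as Cy5 over Cy3, the median of the kidney tubule marker list was above the reference on all 16 arrays (from 2.68 to 3.45), and the other reading would turn every sign below. Arrays had a usable ratio in 14182 to 16057 of their 16896 spots, and the members lacked 10, 12, 3 and 3 of their 120 spot values at rounds 0, 1, 2 and 3. On the round 0 arrays 100% of the values carried 3 decimals, against 83.2% to 88.2% on the amplified arrays, so that a difference in how the files were made and the step from round 0 cannot be told apart. Of the kidney tubule markers, 11 of 35 genes were tested on 17 features, and 15, 14, 13 and 13 of these were called above the reference at rounds 0 to 3, which describes the chosen direction and is no finding.

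Against round 0, 7 of the 15 member clones changed at round 1, beside 13.3% of all tested features: 1 was higher (5.4% of all tested features) and 6 were lower (7.87%). At round 2, 6 changed (11.2%), 1 higher (4.39%) and 5 lower (6.79%). At round 3, 7 changed (11.6%), 1 higher (4.57%) and 6 lower (7.04%), by limma with Benjamini-Hochberg adjustment at 0.05. The ratio was lower than at round 0 in 11 of 15 clones at each of the 3 rounds, with median differences of -0.90, -0.82 and -0.76, beside -0.03, 0.01 and 0.00 over all tested features. The replicates of round 0 did not overlap those of rounds 1, 2 and 3 in 15, 15 and 12 of the 15 clones, beside 64%, 64.3% and 65.1% of all tested features. Differences were spread unevenly over the clones of each gene, from -4.52 for H19 clone 2688 to 2.38 for IGF2 clone 2736. Between amplified rounds limma called 0 of 15 clones in each of the 3 pairs (0%, 0.289% and 0% of all tested features for rounds 2 against 1, 3 against 1 and 3 against 2). At an unadjusted p under 0.05 there were 0, 1 and 0, the 1 being H19 clone 2277, lower at round 3 than at round 1. Replicates did not overlap between these rounds in 4, 6 and 7 clones, beside 40.7%, 52.6% and 38.4% of all tested features. The differences of the members thus lay between unamplified and amplified RNA in these tests, although a p that misses the threshold does not show equal values.

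**Figure D1:**
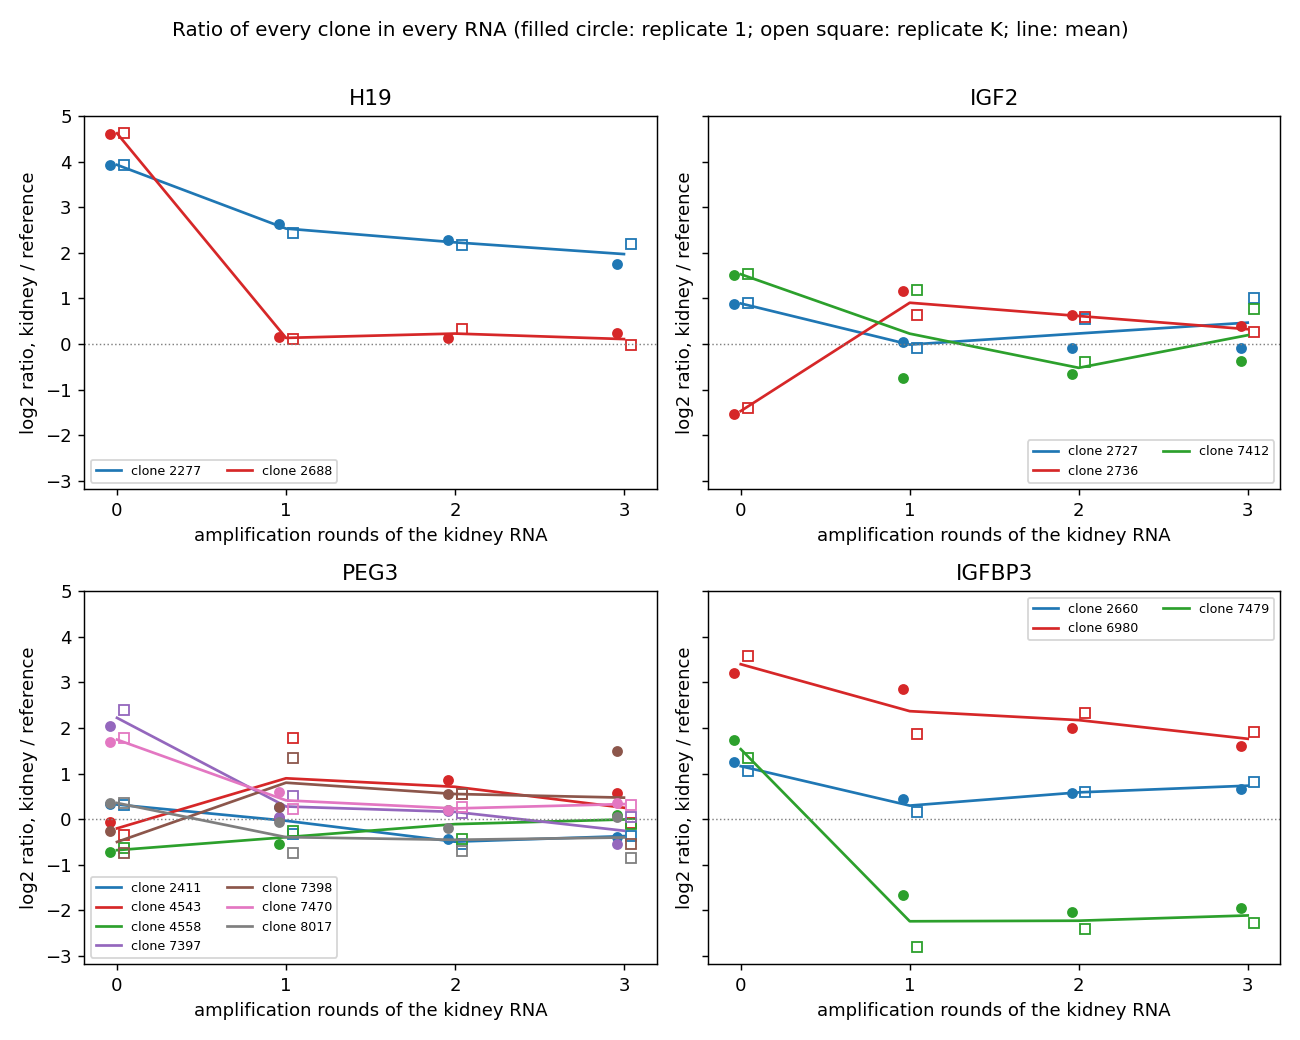
Log2 ratio of kidney over reference (vertical axis) against the number of amplification rounds (horizontal axis) for every clone of the 4 genes; filled circles are replicate 1, open squares replicate K, and lines join the means of the 2 replicates. Clones of one gene part or meet between round 0 and round 1. H19 clone 2688 drops from 4.62 to 0.13 while clone 2277 drops less, from 3.93 to 2.53, and IGF2 clone 2736 crosses the reference upwards.

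IGF2, the ligand, was read by 3 clones that took different courses. Clone 2736 was called below the reference at round 0 and above it at rounds 1 and 2, and at round 3 it was not called on either side (mean 0.32, adjusted p = 0.194, limma). Its ratio was -1.54 and -1.40 in replicates 1 and K at round 0, then 1.17 and 0.64 at round 1, 0.63 and 0.60 at round 2, and 0.40 and 0.25 at round 3. All 4 arrays of round 0 lay below the reference (-1.71 to -1.22) and all 12 arrays of the amplified rounds lay above it (0.23 to 1.23), with no overlap. The rise was 2.38 ± 0.24 (SE, n = 2 RNAs a round; adjusted p = 0.00756, limma) at round 1, 2.09 ± 0.24 (0.00974) at round 2 and 1.80 ± 0.24 (0.0124) at round 3. In the main fit of all 8 RNAs it was the only member called higher at any round. Without centring the rises of 1.99 and 1.43 at rounds 2 and 3 were not called (adjusted p = 0.0616 and 0.0953). The call at round 2 also ended without replicate 1 or K of that round (0.0538 and 0.0578), and that at round 3 without replicate 1 or K of round 3 (0.0585 and 0.0643) or of round 0 (0.0595 and 0.0547).

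IGF2 clone 2727 moved the other way, but its differences did not pass the threshold. Its ratios were 0.87 and 0.91 at round 0, 0.05 and -0.08 at round 1, -0.09 and 0.55 at round 2, and -0.08 and 1.01 at round 3. The value of replicate K at round 0 rests on the Cy5 array alone, because both spots of the other array had no ratio. The differences from round 0 were -0.90, -0.66 and -0.42 (SE 0.40), with adjusted p = 0.179, 0.312 and 0.512 by limma, and the replicates at round 3 lay on either side of round 0.

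IGF2 clone 7412 was above the reference at round 0 in both replicates and dyes (1.34 to 1.75 over 4 arrays), and after amplification its value depended on the dye. With kidney in Cy3 its 6 amplified arrays stood between 0.20 and 2.88, and with kidney in Cy5 they stood between -2.62 and 0.60. At round 1, however, both arrays of replicate 1 and the Cy5 array of replicate K each rest on a single spot. The gap of Cy5 from Cy3 arrays, averaged over the 2 replicates, was -0.04 at round 0 and -2.22, -2.56 and -3.74 at rounds 1, 2 and 3, larger in size than in 93.4%, 97.4% and 99.3% of tested features at those rounds. Averaged over dyes, its differences from round 0 were -1.30, -2.05 and -1.34 (SE 0.66), and limma called none of them (adjusted p = 0.223, 0.0942 and 0.220). From the Cy3 arrays alone the difference at round 3 was 0.51, and from the Cy5 arrays alone it was -3.18.

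The IGF2 clones differed most in unamplified RNA. At round 0, clone 2727 exceeded clone 2736 by 2.36 ± 0.34 (adjusted p = 0.0109, limma on the difference of clones over 1297 same-gene pairs), and clone 7412 exceeded clone 2736 by 3.00 ± 0.60 (adjusted p = 0.0291). At rounds 1, 2 and 3, 0 of the 3 IGF2 pairs were called different, with adjusted p from 0.117 to 0.921. The change from round 0 itself differed between clones 2727 and 2736 at round 1 by 3.28 ± 0.48 (adjusted p = 0.0254) and at round 2 by 2.74 ± 0.48 (0.0346), and missed the threshold at round 3 (2.22 ± 0.48, 0.0573).

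IGFBP3, the binding protein, was above the reference in unamplified RNA on all 3 clones, which then parted. Clone 7479 went from above the reference to below it. It read 1.73 and 1.34 at round 0, -1.67 and -2.81 at round 1, -2.04 and -2.41 at round 2, and -1.95 and -2.28 at round 3. Every array of round 0 was above the reference (0.74 to 1.93) and every amplified array below it (-3.74 to -1.36). At round 0, however, both arrays of replicate 1 and the Cy3 array of replicate K each rest on a single spot. The Cy5 array of replicate K averages spots of opposite sign, -0.25 and 1.74. The difference from round 0 was -3.78 ± 0.41 at round 1, -3.76 at round 2 and -3.65 at round 3 (adjusted p = 0.00756, 0.00883 and 0.00817, limma), the 7th, 6th and 7th deepest of 5537 features. In linear terms this is 13.7-fold, 13.6-fold and 12.5-fold lower. The Cy5 arrays alone gave -2.85, -2.90 and -3.02 and the Cy3 arrays alone -4.70, -4.63 and -4.28, and all 6 passed the test. The call at round 2 ended without replicate 1 or K of that round (adjusted p = 0.0538 and 0.0578), and that at round 3 without its replicate K (0.0506).

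IGFBP3 clone 6980 stayed above the reference at all 4 rounds. Its ratios were 3.21 and 3.59 at round 0, 2.86 and 1.88 at round 1, 2.01 and 2.34 at round 2, and 1.61 and 1.92 at round 3. The difference from round 0 was -1.03 ± 0.37 at round 1 and -1.23 ± 0.37 at round 2, which did not pass (adjusted p = 0.115 and 0.0826), and -1.64 ± 0.37 at round 3, which did (0.0398, limma). That call was lost without either RNA of round 0 (differences of -1.82 and -1.45 for replicates 1 and K), round 2, or round 3 (-1.48 and -1.79). It also ended without centring (adjusted p = 0.0563, limma) and from the Cy3 arrays alone (0.0782). Neither the first nor the second spot alone gave it (0.0632 and 0.0563). Of the 21 alternatives, 7 kept it.

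IGFBP3 clone 2660 was 1.26 and 1.06 at round 0, 0.44 and 0.15 at round 1, 0.58 and 0.60 at round 2, and 0.66 and 0.81 at round 3. Its fall of 0.86 ± 0.21 at round 1 passed (adjusted p = 0.0449, limma) but was lost whichever of the 8 RNAs was left out (adjusted p from 0.0673 without replicate 1 of round 1 to 0.184 without replicate 1 of round 0) and from the arrays of either dye alone (0.165 for Cy5 and 0.0507 for Cy3), and the differences of -0.57 and -0.43 at rounds 2 and 3 did not pass (0.126 and 0.221). The spread among the IGFBP3 clones was wider after amplification than before it for the pairs that hold clone 7479. Clone 6980 exceeded clone 7479 by 1.86 ± 0.30 at round 0 and by 4.61, 4.40 and 3.88 at rounds 1, 2 and 3, and the change of that difference from round 0 was called at rounds 1 and 2 (2.75 ± 0.42, adjusted p = 0.0272, and 2.54 ± 0.42, adjusted p = 0.0299). Clones 2660 and 7479 were 0.37 apart at round 0 (adjusted p = 0.468) and 2.54, 2.82 and 2.85 apart later, a change called at all 3 rounds (adjusted p = 0.0176, 0.0148 and 0.0136).

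H19, the noncoding RNA, had the highest ratios of the members in unamplified RNA. Clone 2688 read 4.62 and 4.63 at round 0, or 24.6 times the reference. It fell to 0.15 and 0.12 at round 1, and read 0.14 and 0.32 at round 2 and 0.25 and -0.03 at round 3. The 4 arrays of round 0 lay between 4.32 and 4.94 and the 12 amplified arrays between -0.17 and 0.50, so that amplified kidney could not be told from the reference on this clone (adjusted p = 0.500, 0.262 and 0.608). The difference from round 0 of -4.49 ± 0.20 at round 1, -4.39 at round 2 and -4.52 at round 3 (adjusted p = 0.000785, 0.000899 and 0.000757, limma) was the 2nd, 3rd and 4th deepest of 5537 features. It passed in all 21 alternative analyses at each round, from either dye alone, and with each RNA left out.

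H19 clone 2277 also fell but kept a ratio above the reference at every round. It read 3.93 and 3.93 at round 0, 2.63 and 2.43 at round 1, 2.28 and 2.18 at round 2, and 1.75 and 2.20 at round 3. No amplified array (1.46 to 3.16) reached the lowest of the round 0 arrays (3.76). The difference was -1.40 ± 0.23 at round 1 (adjusted p = 0.0192, limma), -1.70 at round 2 (0.0129) and -1.96 at round 3 (0.00842), that is 2.63-fold, 3.25-fold and 3.88-fold. The call at round 3 held with each RNA left out. That at round 1 ended without either RNA of round 0 (adjusted p = 0.0759 and 0.0869 for replicates 1 and K) or replicate K of round 1 (0.0781), and that at round 2 without either RNA of round 0 (0.0567 and 0.0642) or of round 2 (0.0622 and 0.0672). From the Cy5 arrays alone the difference at round 1 was -0.98 and was not called (0.102), and the call at round 2 ended without centring (0.0647).

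The H19 clones differed by 0.69 ± 0.22 at round 0, which did not pass (adjusted p = 0.114), with clone 2688 the higher in both replicates. After amplification the order was turned, and clone 2277 exceeded clone 2688 by 2.40, 2.00 and 1.87 at rounds 1, 2 and 3 (adjusted p = 0.00465, 0.00611 and 0.00693, limma). The change from round 0 differed between them by 3.09 ± 0.32, 2.69 ± 0.32 and 2.56 ± 0.32 (adjusted p = 0.0101, 0.0144 and 0.0136). Both clones fell, so the direction was shared and the size was not.

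**Figure D2:**
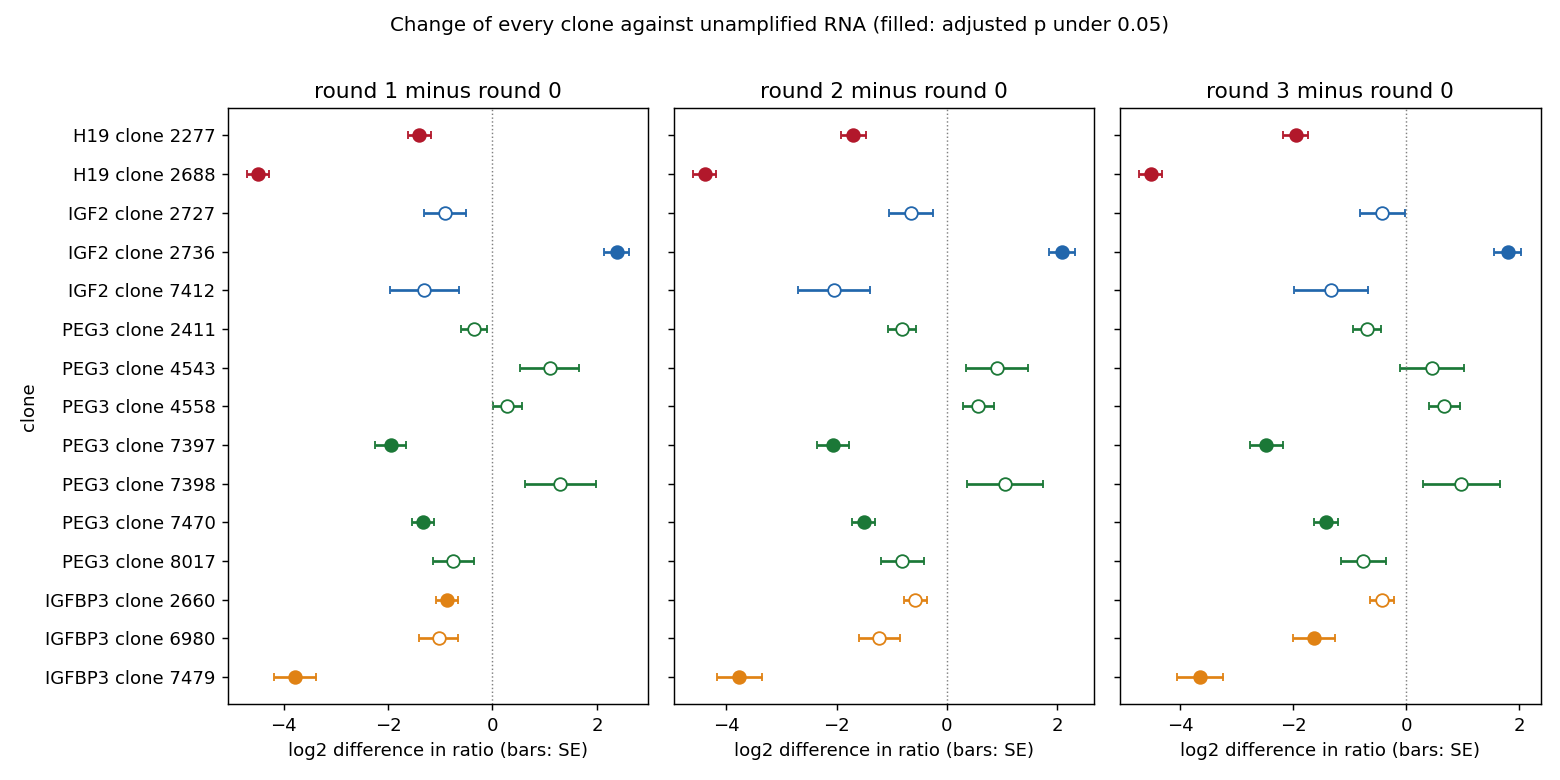
Log2 difference in ratio from round 0 (horizontal axis) for the 15 clones (vertical axis) at rounds 1, 2 and 3, with bars of 1 SE from the limma fit; filled points passed an adjusted p of 0.05. H19 clone 2688 and IGFBP3 clone 7479 lie farthest to the left at each round, and IGF2 clone 2736 is the only filled point to the right of 0.

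PEG3, read by 7 clones, had more clone pairs called different in unamplified RNA than at any amplified round. Clones 7397 and 7470 were called above the reference at round 0, clone 4558 below it, and clones 2411, 4543, 7398 and 8017 on neither side. Of the 21 pairs of PEG3 clones, 8 were called different at round 0, and 0, 1 and 1 at rounds 1, 2 and 3. Clones 7397 and 7470 each exceeded clone 4558 at round 0, by 2.90 ± 0.26 and 2.43 ± 0.25 (adjusted p = 0.00298 and 0.00424, limma). Over all 28 same-gene pairs of the members, 12, 4, 5 and 4 differed at rounds 0 to 3, beside 11.3%, 19.8%, 16% and 13.5% of the 1297 pairs of 905 genes, so that the members had more called pairs at round 0 than after it and the array as a whole had fewer.

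PEG3 clone 7397 read 2.05 and 2.39 at round 0, 0.05 and 0.51 at round 1, 0.17 and 0.14 at round 2, and -0.55 and 0.05 at round 3. The difference from round 0 was -1.95 ± 0.29 at round 1 (adjusted p = 0.0156, limma), -2.06 at round 2 (0.0140) and -2.48 at round 3 (0.00869). Its arrays, however, parted by dye after amplification, except in replicate K of round 3. At round 1 those with kidney in Cy3 read 1.58 and 1.84 and those with kidney in Cy5 read -1.49 and -0.82. The 1.58 rests on a single spot, and the -1.49 averages spots of 0.61 and -3.58. In replicate K of round 3 the spots also disagreed, at -1.77 and 1.27 in Cy3 and 2.06 and -1.375 in Cy5. From the Cy3 arrays alone the difference of round 1 from round 0 was -0.65 (adjusted p = 0.268, limma). From the Cy5 arrays alone it was -3.24 (adjusted p = 0.0551). At round 2 the same values were -1.59 (0.0502) and -2.53 (0.0827), so that neither dye passed, and at round 3 they were -2.11 (0.0291) and -2.85 (0.0524). All 3 calls ended when the Cy3 array of round 1, replicate 1, which holds stray numbers, was omitted (0.0515, 0.0942 and 0.0608), and that at round 2 ended without centring (0.0691). None of the 3 calls was made from the second spot of the pair alone (adjusted p = 0.105, 0.291 and 0.231). The call at round 1 ended without replicate K of round 0 (0.0786) or either RNA of round 1 (0.0522 and 0.0531), and that at round 2 without replicate K of round 0 (0.0728) or either RNA of round 2 (0.0670 and 0.0685).

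PEG3 clone 7470 read 1.70 and 1.79 at round 0, 0.59 and 0.23 at round 1, 0.21 and 0.26 at round 2, and 0.35 and 0.31 at round 3. It fell by 1.33 ± 0.21, 1.51 ± 0.21 and 1.41 ± 0.21 (adjusted p = 0.0173, 0.0136 and 0.0163, limma). Its dye gaps, averaged over the replicates, were at most 0.86 in size, and the largest in a single RNA was 1.04 (replicate K of round 1). The Cy3 arrays alone gave -1.99, -2.03 and -1.82, which passed (0.0133, 0.0190 and 0.0243), and the Cy5 arrays alone gave -0.67, -0.99 and -1.004, which did not (0.163, 0.0664 and 0.0519). The calls at rounds 2 and 3 ended without centring (0.0986 and 0.0585), and that at round 1 without the Cy3 array with stray numbers (0.0650). Each of these calls was lost without either RNA of round 0 (adjusted p from 0.0567 to 0.0860), and also without replicate K of round 1 for round 1 (0.0657) and without either RNA of the later round for rounds 2 and 3 (from 0.0622 to 0.0811). Both clones thus lost most of an unamplified ratio above the reference, and neither was called against the reference at any amplified round.

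The 5 other PEG3 clones did not pass in any comparison with round 0 in the main fit. Clone 2411 stood at 0.32, -0.04, -0.49 and -0.37 at rounds 0 to 3 and clone 8017 at 0.35, -0.39, -0.45 and -0.40, both lower later. Clone 4558 stood at -0.68, -0.40, -0.11 and -0.01, clone 4543 at -0.20, 0.90, 0.71 and 0.25, and clone 7398 at -0.50, 0.80, 0.55 and 0.47, all higher later. For clone 4543 the rise at rounds 2 and 3 was seen only with kidney in Cy3. Its Cy5 arrays read 0.09 and 0.31 at round 0, -0.09 and -0.08 at round 2, and -0.32 and -0.72 at round 3. Its replicates at round 1 were 0.02, from the Cy3 array alone, and 1.77. Clone 7398 had large errors and lacked 11 of its spot values. Its replicates at round 3 were 1.49 and -0.55, and the difference of 0.97 ± 0.68 became -0.05 without replicate 1 of that round. The 1.49 of replicate 1 rests on the Cy3 array alone, because both spots of the Cy5 array had no ratio. Replicate K averages 1.92 in Cy3 and -3.01 in Cy5, so the replicates of this round were not read by the same dyes. Clone 4558 differed from clone 7397 in its change from round 0 at all 3 rounds, by 2.23, 2.64 and 3.15 (SE 0.37; adjusted p = 0.0281, 0.0205 and 0.0136, limma on the difference of clones). PEG3 clones thus did not share 1 course over the rounds.

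Clone differences in the change from round 0 were called in 6, 8 and 4 of the 28 member pairs at rounds 1, 2 and 3, beside 7.86%, 5.94% and 5.55% of the 1297 same-gene pairs. No member pair had both clones called in opposite directions, since the only clone called higher was of a gene with no clone called lower. Both clones were called on 1 side in the H19 pair at each round and in the PEG3 pair of clones 7397 and 7470 at each round. For IGFBP3 this held for clones 2660 and 7479 at round 1 and for clones 6980 and 7479 at round 3. Among all 1297 pairs, both clones were called in 1 direction in 28, 10 and 15 pairs and in opposite directions in 12, 9 and 6.

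Which clone of a gene carried a dye gap, averaged over the replicates, also varied. A gap of over 2 between Cy5 and Cy3 arrays was found in 0 of 13, 3 of 14, 2 of 15 and 1 of 14 member clones with both dyes in both replicates at rounds 0 to 3, and in 2.31%, 8.20%, 5.47% and 6.56% of all tested features. The clones over it were IGF2 clone 7412 at rounds 1, 2 and 3, PEG3 clone 7397 at round 1 and PEG3 clone 7398 at rounds 1 and 2, each with Cy3 arrays above Cy5 arrays. PEG3 clone 7398 reached 3.89 on the Cy3 array and -1.23 on the Cy5 array of 1 RNA, replicate K of round 1. In contrast, the averaged gaps of H19 clone 2688 and IGF2 clone 2736 were no larger than 0.37 in size at any round. Gaps of opposite sign partly cancel in such averages. In single RNAs the largest were -0.62 for H19 clone 2688 (replicate K of round 0) and 0.64 for IGF2 clone 2736 (replicate K of round 1).

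**Figure D3:**
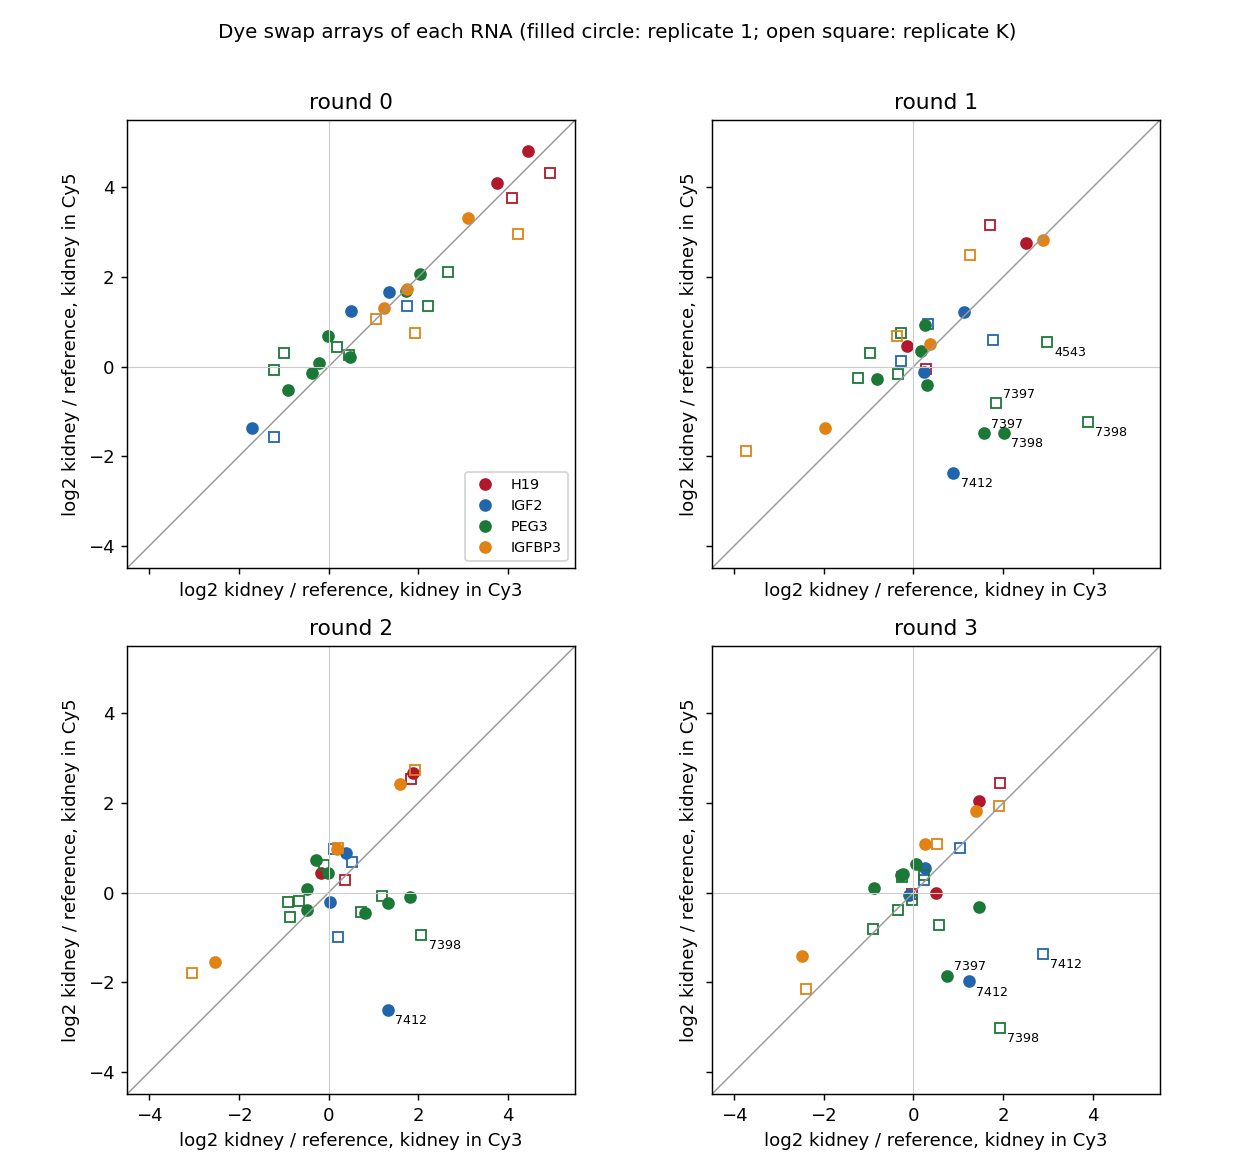
Log2 ratio of kidney over reference on the array with kidney in Cy5 (vertical axis) against that with kidney in Cy3 (horizontal axis) for each member clone and RNA, by round; filled circles are replicate 1, open squares replicate K, colours are genes, and the diagonal marks equal values. Clones 4543, 7397, 7398 and 7412 are numbered where the arrays differ by over 2, which is at amplified rounds only, and all such points lie below the diagonal.

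Against the reference itself, 11 of 15 clones were called at round 0 (38.7% of all tested features), 9 above it (19.6%) and 2 below it (19%), then 4 at round 1 (37.8%), 5 at round 2 (35.2%) and 4 at round 3 (35.1%). The called share of all features thus stayed near its level while that of the members was lower at each amplified round. H19 clone 2277 and IGFBP3 clone 6980 were above the reference at all 4 rounds, with means of 3.93, 2.53, 2.23 and 1.97 for the first and 3.40, 2.37, 2.17 and 1.76 for the second. The moderated F test for any difference among rounds called 6 clones, beside 7.59% of all tested features: both H19 clones, IGF2 clone 2736, PEG3 clones 7397 and 7470, and IGFBP3 clone 7479.

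The rest of the IGF axis and of the imprinted genes on the array was read from lists that also hold receptors, other binding proteins, proteins of IGFBP breakdown, signalling proteins and other genes with parental expression, some of which are imprinted only in certain species or tissues. Without the 4 member genes they came to 48 tested features of 38 genes. Of these, 4 changed at round 1 (0 higher, 4 lower), 7 at round 2 (1 higher, 6 lower) and 6 at round 3 (1 higher, 5 lower), or 8.33%, 14.6% and 12.5%, near the background of 13.3%, 11.2% and 11.6%. Their median differences were -0.15, -0.34 and -0.21. The 32 IGF axis features had 3, 5 and 4 calls and the 20 imprinted ones 2, 3 and 2, with 4 features in both. These counts moved with single RNAs, among them 1 at round 1 without any 1 RNA of rounds 0 and 1, 0 at round 2 without replicate 1 of that round, and 0 at round 3 without replicate 1 of round 0.

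Among receptors, IGF2R was read by clone 5318, which was 1.49, 0.62, 0.45 and 0.82 at rounds 0 to 3 and fell at round 1 by 0.87 ± 0.19 and at round 2 by 1.03 ± 0.19 (adjusted p = 0.0364 and 0.0260, limma), while the difference of -0.67 at round 3 did not pass (0.0713). Its other clone, 6421, named after its values were seen, was below the reference at each round (-0.83, -0.87, -0.94 and -0.81). The IGF2R clones thus lay on opposite sides of the reference at all 4 rounds. Of the binding proteins, IGFBP6, which prefers IGF2 to IGF1, read -2.39, -0.71, -0.21 and -0.01, and rose at round 2 by 2.19 ± 0.53 and at round 3 by 2.39 ± 0.53 (0.0481 and 0.0382). IGFBP7 clone 3248, a secreted protein that binds IGFs weakly, fell at all 3 rounds, by 1.69, 1.64 and 1.42 ± 0.31 (0.0245, 0.0286 and 0.0377), from 1.30 at round 0.

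STC1, a secreted glycoprotein that inhibits the protease of IGFBP4, had a clone (7401) at 3.66, -0.20, 0.95 and -0.09, which fell at round 1 by 3.86 ± 0.76 and at round 3 by 3.75 ± 0.76 (adjusted p = 0.0283 and 0.0315, limma), with -2.71 at round 2 (0.0691). RPS6KB1, the S6 kinase, fell by 1.57 ± 0.25 and 1.61 ± 0.25 at rounds 2 and 3 (0.0193 and 0.0183), and PIK3R1, a regulatory subunit of PI3 kinase, fell at round 2 by 1.25 ± 0.23 (0.0253). Of the imprinted genes, PHLDA2, a maternally expressed gene that restrains placental growth, read 2.16, 0.12, -0.18 and -0.09, and fell by 2.04, 2.33 and 2.24 ± 0.34 (0.0195, 0.0150 and 0.0175). NAP1L5, a paternally expressed gene of the nucleosome assembly protein family, read -0.01, -1.26, -1.88 and -2.09 and fell by 1.86 ± 0.35 and 2.08 ± 0.35 at rounds 2 and 3 (0.0284 and 0.0220). Apart from IGF2R clone 6421, these features were named because they were called, so their number and direction say nothing of the lists as a whole.

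**Figure D4:**
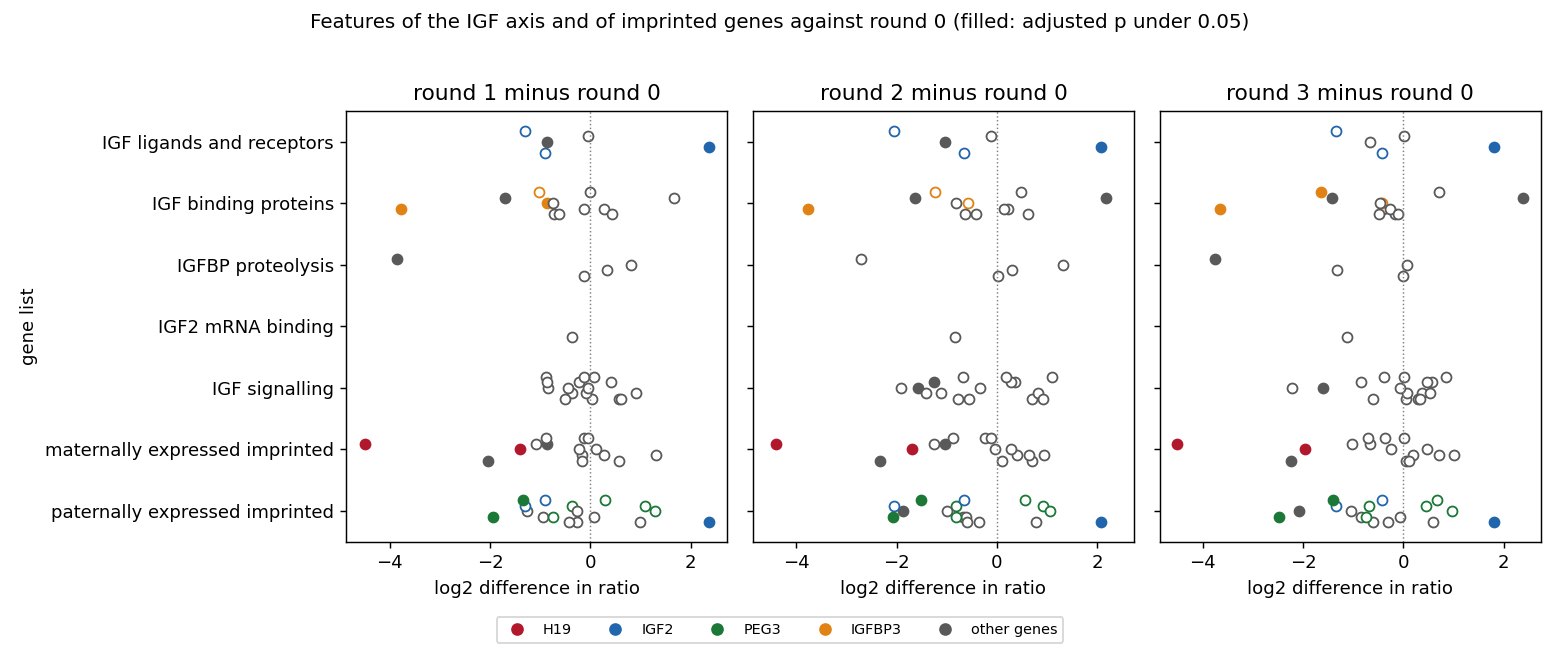
Log2 difference in ratio from round 0 (horizontal axis) for every tested feature of 7 lists of the IGF axis and of imprinted genes (vertical axis, shifted within a list for legibility); filled points passed an adjusted p of 0.05, colours mark the 4 member genes, and a feature in 2 lists appears in both. Member clones make up the farthest points of 4 lists at round 1: H19 clone 2688 at -4.49, IGFBP3 clone 7479 at -3.78, PEG3 clone 7397 at -1.95 on the left, and IGF2 clone 2736 at 2.38 on the right.

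Other tissues were looked for through marker lists. Of adrenal cortex markers, 3 of 12 genes were tested on 4 features, with list medians per RNA from -1.33 to -1.30 at round 0 and from -1.86 to -1.22 at the amplified rounds, and 0 of the 4 changed at any round against round 0. The placenta and trophoblast list (32 features of 18 of its 31 genes) had medians per RNA from -0.69 to -0.47 at round 0 and from -0.36 to 0.13 later, with 3 features called higher and 1 lower at round 1, 2 higher at round 2 and 3 higher at round 3. The called shares of 12.5%, 6.25% and 9.38% lay below those of all tested features (13.3%, 11.2% and 11.6%). The stroma and muscle list (19 features of 14 of 24 genes) had medians per RNA from -1.41 to -1.20 at round 0 and from -0.80 to -0.21 later, with 4, 3 and 3 higher and 2, 2 and 1 lower, or called shares of 31.6%, 26.3% and 21.1%. Blood and immune markers (14 features of 11 of 24 genes) had median differences from round 0 of 0.32, 0.65 and 0.68, with 1, 0 and 2 called higher and 0 lower. Of the fetal liver and yolk sac markers 2 of 14 genes were tested on 2 features, with median differences of 0.84, 0.69 and 0.66 and 1 called higher at round 3. The median differences were above 0 at each amplified round for the placenta, stroma, blood and fetal liver lists and below 0 for the adrenal cortex list (-0.19, -0.34 and -0.01), while most members stood lower, and the part of these lists in the members' changes was not tested. In such bulk RNA, fewer cells of a type and less RNA per cell cannot be told apart within a round. Differences between rounds follow amplification of RNA already isolated, and are not read here as differences in cells.

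For each gene with a called clone, the other features with the most similar profile over the 8 RNAs were found by Pearson's r, as a description in which all features share arrays and centring. H19 clone 2688 was most like PGLS, a pentose phosphate enzyme (5.44 at round 0 and 0.51, 0.47 and 0.61 later), PPP1R35 (2.72, then -0.49, -0.33 and -0.24) and RNPEPL1 (1.61, then -0.53, -0.62 and -0.63), with r of 0.995, 0.995 and 0.994. IGFBP3 clone 7479 was most like ADAMTS7, a metalloproteinase, TNC, the matrix protein tenascin C, and SLC2A3, a glucose transporter (r = 0.993 each). PEG3 clone 7397 was most like CCDC186, NABP1 and SCAF11 (r = 0.989, 0.985 and 0.980), and IGF2 clone 2736 was most like PKM, the pyruvate kinase of muscle and other tissues, SUCLG2, a mitochondrial enzyme, and TCF7L1, a transcription factor (r = 0.992, 0.990 and 0.988). Profiles of this kind were common, since 318, 330, 170 and 114 of the 5428 features compared had r above 0.9 with the H19, IGFBP3, PEG3 and IGF2 clones.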

How the data were processed

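Trizol-isolated RNA was, per the labels, reverse-transcribed with Superscript III and coupled to Cy3 or Cy5. On 15 arrays the deposited values are channel ratios on a log2 scale. The deposited column of the round 1, replicate 1, Cy3 array is called a score, because 52 numbers outside that range stand among its ratios. How the scanner signals were background-corrected or normalized is not given in the sources used here. Array columns with opposite dyes correlated at -0.60 to -0.19 across spots, so the ratios run by dye, and arrays of 1 orientation correlated at 0.27 or more.

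Symbols come from the array's annotation table, which lists a gene for 5693 of 8448 features and a single symbol for 5598. Numbers over 10 in size (among them the code 16.61) were treated as missing, duplicate spots averaged, Cy3 arrays turned, arrays centred on the median of features with a listed gene, and dye swaps averaged. Rounds were compared over 8 RNAs by limma 3.58.1 (lmFit, eBayes) in R 4.3.3 with the data.table package, version 1.17.8, with 4 residual and 2.4 prior degrees of freedom and Benjamini-Hochberg adjustment over 5537 features with a listed gene and values in all RNAs. Same-gene clones were compared by the same fit on their difference. The scripts were tested on simulated data. No exact test of 2 against 2 RNAs can pass 0.05. Figures used matplotlib 3.10.9.

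Members, gene lists and tests were chosen with earlier results of these data known. Named genes were all member clones, list features called against round 0 (up to 6 a list) and the 3 most similar symbols per gene. Replicate labels were not shown to pair RNAs, since residuals correlated above 0.1 in 1 of 6 pairs of rounds. Most alternatives are described in the closing section. The others were a wider limit on the size of values and the inclusion of features with no listed gene. Fits of features with a value in at least 1 replicate of every round, and of the first spot alone, were also run. No signal intensities or sequences were used, and the RefSeq gene table served only for the gene type and neighbours given above. Precision is limited by how few arrays there are.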

Additional observations from a re-analysis of the deposited data

Results flagged for a closer look

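Within groups of 4 arrays of 1 round, the highest or lowest array of a member clone stood apart from the other 3 (by Dixon's criterion) in 4 of 56 groups. Chance alone gives about 1 in 20 groups, so this number is near what chance gives. For H19 clone 2688 the round 3 array of replicate 1 with kidney in Cy3 read 0.498, with the others from -0.03 to -0.01. For IGF2 clone 2736 the round 3 array of replicate 1 with kidney in Cy5 read 0.544, with the others from 0.23 to 0.28. For PEG3 clone 2411 the round 1 array of replicate K with kidney in Cy3 read -0.965, with the others from 0.17 to 0.34. For PEG3 clone 7397 the round 0 array of replicate K with kidney in Cy3 read 2.67, with the others from 2.05 to 2.12. The 3 that belong to clones with called changes are small beside those changes.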

How the results depend on the processing

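Of the 20 called member changes, 7 passed with each of the 8 RNAs left out in turn and 4 passed in all 21 alternatives: H19 clone 2688 at rounds 1, 2 and 3 and H19 clone 2277 at round 3. Over these alternatives, called changes gave 329 values that passed, 91 that kept the direction but missed the threshold and 0 that changed sign. The counts of called members at rounds 1, 2 and 3 (7, 6 and 7) became 11, 2 and 4 without centring, which moved the median difference of all features to -1.04, -0.08 and -0.34 and made 10 of the 11 calls at round 1 lower. The list counts (4, 7 and 6) then became 14, 0 and 2. In a fit of the 16 arrays with dye as a term the list counts were 12, 12 and 13, and the clone pairs with a called difference in change (6, 8 and 4) were 11 at round 1 and 11 at round 3. With arrays scaled to equal spread, 7 pairs were called at round 3. From Cy5 arrays alone 3 of 13 members were called at round 1, and 3, 2 and 2 of 17 pairs. From Cy3 arrays alone 3 of 13 members were called against the reference at round 2, and 4 of 20 pairs at round 2. At round 1, 1 member was called when only the rounds compared were fitted, 4 without the Cy3 array of replicate 1 that holds stray numbers, and 4 with the second spot of each feature alone. The cause of these shifts was not tested.

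Leaving out each RNA gave 3 to 6, 1 to 8 and 3 to 7 called members, with 3 at round 1 without replicate K of round 0 or of round 1, 1 at round 2 without either RNA of round 2, and 3 at round 3 without replicate K of round 3. Calls against the reference at round 0 numbered 7 without its replicate 1, and at round 2 they numbered 3 without either RNA of that round. The list counts ran from 1 to 4, 0 to 8 and 0 to 4, calls against the reference from 7 to 10, 4 to 4, 3 to 6 and 3 to 4 at rounds 0 to 3, and calls between amplified rounds from 0 to 0. With the replicate label as a block, 6, 6 and 6 members were called against round 0, and the block ended 2 calls (IGFBP3 clone 2660 at round 1 and clone 6980 at round 3) and changed no other among 45 member changes.

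Of 504 values for uncalled differences over the alternatives, 14 passed. With dye as a term, PEG3 clone 2411 passed at rounds 2 and 3 (adjusted p = 0.0219 and 0.0426, limma). IGFBP3 clone 6980 then passed at round 2 (0.0257). When only the rounds compared were fitted, IGF2 clone 7412 passed at round 2 (0.0454). Without replicate 1 of round 1, the rise of PEG3 clone 4543 at round 1 was 1.97, against 1.10. Uncalled differences changed sign in 5 cases. PEG3 clone 4558 at round 1 was -0.73 without centring. PEG3 clone 7398 at round 3 was -0.42 with 16 arrays and -0.046 without replicate 1 of that round, against 1.99 without replicate K. IGF2 clone 7412 at round 3 was 0.51 from Cy3 arrays alone, and IGF2 clone 2727 at round 3 was 0.12 without replicate 1 of that round and -0.97 without replicate K.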
